A study of Mus musculus with 13 samples.

Results

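Messenger RNA of 36 genes of the NF-κB pathway, of 55353 genes listed, was followed across 8 types of liver cell in mice with cholangitis. The genes were chosen by name and comprise the 5 subunits of the transcription factor, its inhibitors, the kinases and adaptor proteins that release it, the enzymes that brake it, the ligand Tnf and several of its induced products. Liver cells were profiled by droplet-based 3′ single-cell RNA sequencing (10x Genomics), in which each captured messenger RNA molecule is counted once by its unique molecular identifier (UMI). Values are CPM, the UMIs of a gene as parts of 1000000 UMIs of the cell type in a library, from barcodes with at least 1500 UMIs, summed over all cells of the type. Cholangitis was induced in male C57BL/6J mice, 6 to 12 weeks old, with DDC (3,5-diethoxycarbonyl-1,4-dihydrocollidine) mixed into the chow at 0.1%, a xenobiotic that injures the small bile ducts. The series was designed to follow the cells around the bile ducts through the course of this disease.

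The 12 libraries of the disease course held 1 library for each of 2 isolation protocols at day 0 (D0, steady state), days 3 and 5 (D3 and D5, onset) and days 9, 19 and 25 (D9, D19 and D25, progression). The D19 library of protocol B carries day 18 in its group label and day 19 in its title. A further library (STOP, protocol B) came from mice given DDC for 18 days and then 7 days of recovery. Protocol A pooled sorted Epcam+, Pdpn+, Lyve-1+, Cd45+, Cd31+ Lyve-1- and retinoid-autofluorescent cells with live singlets. Protocol B pooled Epcam+ cells, Cd3e+ Lyve-1- cells, Cd45+ Itgax+ Cd64- cells and live cells of a stellate cell preparation, so that its Cd64- gate disfavours macrophages. The protocols also used different index kits, and protocol cannot be told apart from kit. Neither the labels nor the methods say which or how many mice went into a library, so n counts libraries, and p-values measure the spread between libraries, which may be technical. Sorting at equal ratios means that the libraries do not carry the proportions of cell types in the liver.

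NF-κB is a family of dimers built from RelA, RelB, c-Rel, p50 (from Nfkb1) and p52 (from Nfkb2), which inhibitors of the IκB class hold inactive. In the classical arm, TNF, IL-1 or microbial ligands activate the IKK complex, IκBα is degraded, and dimers of RelA or c-Rel switch on inflammatory genes, among them the genes for IκBα (Nfkbia) and for the deubiquitinase A20 (Tnfaip3), which then shut the signal off. In the alternative arm, receptors such as CD40 and the lymphotoxin β receptor stabilise the kinase NIK (Map3k14), p100 is cut to p52, and RelB dimers are released, an arm known for dendritic cell maturation and B cell survival. Transcript levels of such feedback genes move with the activity of the pathway in many cells, but they are not a measure of nuclear NF-κB.

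Libraries held 29307190 to 108602421 UMIs and 1541 to 14764 barcodes that passed as cells, and no pair of libraries shared more than 49 of them. Both day 0 libraries had fewer UMIs per cell (medians of 3350.0 and 3512) than any DDC library (3980.0 to 12013). Clusters, formed without the 36 genes and other pathway genes, were named from marker genes and carry the ending -like: 19611 LSEC-like (liver sinusoidal endothelial), 12379 macrophage-like, 9453 T-like, 5575 BEC-like (biliary epithelial), 5056 cDC1-like, 4276 neutrophil-like, 1282 B-like and 712 mature DC-like cells, while 14669 of 95563 cells stayed unnamed and the rest belonged to other types. Each cluster of these types had at least 6 markers of its type detected. The summed markers of a type were at least 1896 CPM in each library of that type, and their median in the other types was at most 678 CPM. LSEC markers were the exception in range, as they reached 8331 CPM in B-like cells of D9 A, where the B cell markers themselves summed to 4016 CPM. In all 5 B-like sums of protocol A LSEC markers summed to 4056 to 8331 CPM, and their part in the B-like values was not tested. A library entered a comparison of a type with at least 20 of its cells, so that steady state rests on D0 A alone for BEC-like cells and on D0 B alone for mature DC-like cells. In these sums, more RNA of a gene in every cell and more cells of a state that holds it cannot be told apart.

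Among the 8 types compared, mature DC-like and neutrophil-like cells had the highest medians for most of the pathway. Cells of the cDC2-like type were left out of this ranking. From D0 to D25 they had 161 to 595 CPM of Nfkb1, 131 to 1058 CPM of Tnip3 and 38.8 to 105 CPM of Relb. Of the 36 genes, 13 had their highest median of the 8 types in mature DC-like cells, where 5.59% of 10894 genes with a median of at least 10 CPM in any type did, and 12 had it in neutrophil-like cells, where 10.6% of those genes did. BEC-like and cDC1-like cells led for 3 each, LSEC-like and T-like cells for 2 each, B-like cells for 1 and macrophage-like cells for none. These levels are a description without a test, since the types were found in the same cells. CPM is a share of the RNA of a type and not an amount per cell. Median UMIs per cell were 1810.5 to 3497 in neutrophil-like sums from D0 to D25 and 4886.5 to 19469.5 in macrophage-like sums. Levels per cell were not compared. For 8 genes (Nfkb2, Relb, Nfkbib, Nfkbid, Tnf, Traf1, Tnfaip2 and Nlrp3) the lowest library of the leading type lay above the highest library of the type next in median, which is 22.2% of the members and held for 17% of all 10894 genes. For the other 28 genes the ranges of these types overlapped. A library of another type could still reach the leading one, as Tnf shows.

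**Figure D1:**
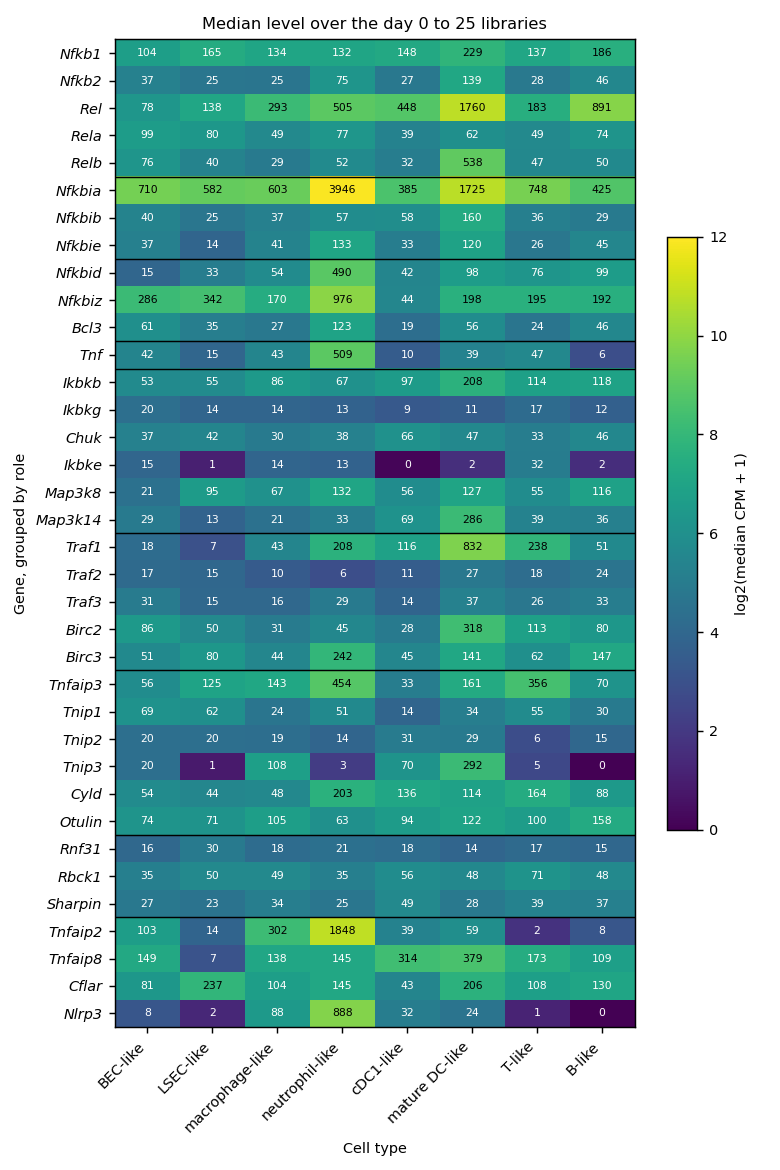
Median CPM over the D0 to D25 libraries with at least 20 cells of a type, for the 36 genes in rows, grouped by role with black lines, and the 8 cell types in columns. Colour is log2(median CPM + 1) and the printed number is the median CPM, which is highest in mature DC-like cells for 13 genes and in neutrophil-like cells for 12.

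The 12 genes with their highest median in neutrophil-like cells were the inhibitors Nfkbia, Nfkbie, Nfkbid, Nfkbiz and Bcl3, the ligand Tnf, the kinase Map3k8, Birc3, the deubiquitinases Tnfaip3 and Cyld, and Tnfaip2 and Nlrp3. For Map3k8 the lead was narrow, at 132 against 127 CPM in mature DC-like cells and above them in 4 of 8 shared libraries. For Nfkbie it was 133 against 120 CPM, with neutrophil-like above mature DC-like cells in 5 of 8. Nfkbia, which encodes IκBα, had 3946 CPM in neutrophil-like cells (1143 to 7527), 1725 in mature DC-like, 748 in T-like, 710.4 in BEC-like, 603 in macrophage-like, 582 in LSEC-like, 425 in B-like and 385 in cDC1-like cells (173 to 545). It was highest in neutrophil-like cells in each of the 11 libraries that held them, although D0 A stood far below the rest of the neutrophil-like values at 1143 CPM and D0 B at the top with 7527 CPM. Nfkbid, an atypical inhibitor that acts in the nucleus, had 490.1 CPM in neutrophil-like cells (338 to 704), 99.1 in B-like, 98.5 in mature DC-like, 76.3 in T-like, 54 in macrophage-like, 42.4 in cDC1-like, 32.6 in LSEC-like and 14.7 in BEC-like cells (8.76 to 16.8). Nfkbiz, a nuclear cofactor of p50 that favours secondary response genes, had 976 CPM in neutrophil-like cells (618 to 1221), 342 in LSEC-like, 286 in BEC-like, 198 in mature DC-like, 195 in T-like, 192 in B-like, 170.3 in macrophage-like and 43.9 in cDC1-like cells (19.6 to 88.8). Nfkbid led in neutrophil-like cells in 11 of 11 libraries and Nfkbiz in 10 of 11, with LSEC-like cells next. Below the leading type, all neighbours in these orders overlapped in range, except that the macrophage-like range of Nfkbiz lay wholly above the cDC1-like range.

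The ligand Tnf also had its highest CPM in neutrophil-like cells. It had 509 CPM in neutrophil-like cells (106 to 762), 46.8 in T-like, 42.9 in macrophage-like, 42.3 in BEC-like, 38.7 in mature DC-like, 14.6 in LSEC-like, 10.2 in cDC1-like and 6.49 in B-like cells (0 to 24.2). Neutrophil-like cells led in each of their 11 libraries. Their lowest library, D0 A at 106 CPM, was passed, among the other 7 types, by macrophage-like cells of D0 B (235 CPM) and D9 A (128 CPM) and by mature DC-like cells of D0 B (144 CPM). Tnfaip2, a TNF-induced gene of membrane protrusions, had a median of 1848 CPM in neutrophil-like cells against 302 in macrophage-like and 103 in BEC-like cells. Nlrp3, the sensor of an inflammasome that NF-κB primes, had 888 CPM there (605 to 1169) against 87.7 CPM in macrophage-like cells (44.1 to 193) and 1.51 in LSEC-like cells. Birc3 (cIAP2, a ubiquitin ligase of the TNF receptor complex) and Bcl3 (an atypical IκB) had medians of 242 and 123 CPM in neutrophil-like cells. Within the 11 libraries that held both types, 11 of the 35 genes with at least 10 CPM in either were higher in neutrophil-like than in macrophage-like cells every time (12.0% of 7897 genes), and 2 were lower every time (27.9%). The latter were Otulin, which removes linear ubiquitin, and Tnip3, an A20-binding protein at 3.43 CPM in neutrophil-like and 108 CPM in macrophage-like cells.

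Mature DC-like cells carry the migratory programme with Ccr7 and Fscn1. They led for Relb, Nfkb2, Map3k14, Traf1, Birc2, Traf2 and Traf3, which belong to the alternative arm or act on it. For Traf2 (27.3 against 23.5 CPM in B-like cells) and Traf3 (37.1 against 33.0 CPM) the lead was narrow. Each was above B-like cells in 3 of 5 shared libraries. The lead was not confined to that arm, as it also held for Nfkb1, Rel, Nfkbib and Ikbkb of the IKK complex. Ikbkb had 208 CPM against 118 CPM in B-like cells. Nfkbib had 160 CPM against 57.6 CPM in cDC1-like cells. Both were highest in mature DC-like cells in 9 of 9 libraries. Relb had 538 CPM in mature DC-like cells (462 to 787), 75.6 in BEC-like, 51.9 in neutrophil-like, 50.3 in B-like, 47.4 in T-like, 39.9 in LSEC-like, 32.5 in cDC1-like and 28.8 in macrophage-like cells (14.8 to 58.9). In each of the 9 libraries with mature DC-like cells Relb was highest there, and their lowest library lay above every library of the other 7 types. The next types, BEC-like and neutrophil-like cells, overlapped. Nfkb2, whose product p100 is the substrate of that arm, had 139 CPM in mature DC-like cells (114 to 191), 74.7 in neutrophil-like, 46.2 in B-like, 37.3 in BEC-like, 27.9 in T-like, 27.2 in cDC1-like, 25.4 in LSEC-like and 24.6 in macrophage-like cells (11.3 to 36.4). Map3k14 (NIK) had a median of 286 CPM (122 to 373), Traf1 832 CPM (651 to 1340.5) and Birc2 (cIAP1, which with Traf2 and Traf3 keeps NIK low) 318 CPM (134 to 525) in mature DC-like cells. The next types were cDC1-like cells at 69 CPM for Map3k14 and T-like cells at 238 CPM for Traf1 and 113 CPM for Birc2. Chuk, which encodes the kinase IKKα that acts on p100, had its highest median in cDC1-like cells (66 CPM, with 46.9 CPM in mature DC-like cells and overlapping ranges), and Birc3 had its own in neutrophil-like cells.

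Rel, the subunit c-Rel of lymphoid and dendritic cells, had 1760.3 CPM in mature DC-like cells (849 to 2888), 891 in B-like, 505 in neutrophil-like, 448 in cDC1-like, 293 in macrophage-like, 183 in T-like, 138 in LSEC-like and 78.1 in BEC-like cells (35.5 to 117). Mature DC-like cells led in 9 of 9 libraries, and B-like cells came next, with ranges that overlapped. Among the 8 types Nfkb1 was far more even, with 229 CPM in mature DC-like cells (77.5 to 328), 186 in B-like, 165 in LSEC-like, 148 in cDC1-like, 137 in T-like, 134 in macrophage-like, 132 in neutrophil-like and 104 in BEC-like cells (78.6 to 139.7), and the ranges of all neighbours in that order overlapped. In cDC2-like cells, outside the 8 types, Nfkb1 ran from 161 to 595 CPM. Rela, the main activating subunit of the classical arm, was likewise even, from a median of 39 CPM in cDC1-like to 99.5 CPM in BEC-like cells. The contrast between mature DC-like and cDC1-like cells was wide, and cDC2-like cells were not part of it. In the 9 libraries with both, 22 of 35 genes were higher in mature DC-like than in cDC1-like cells every time (13.5% of 7418 genes). None was lower every time, whereas 1833 of the 7418 genes were. The median ratio within a library was 17.4 for Relb (9.83 to 25.3), 8.93 for Birc2 (4.88 to 16.5), 7.04 for Traf1 (5.30 to 12.6) and 5.69 for Nfkb2 (4.06 to 7.69). Cells of the cDC1-like type had the lowest median of the 8 types for 11 members (Rela, Nfkbia, Nfkbiz, Bcl3, Ikbkg, Ikbke, Traf3, Birc2, Tnfaip3, Tnip1 and Cflar). The share of all genes with their lowest median in this type was not counted, so whether the count of 11 is particular to the members cannot be told. The leading members of cDC1-like cells were Rel, Nfkbia and Tnfaip8, a regulator of apoptosis with a median of 314 CPM.

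**Figure D2:**
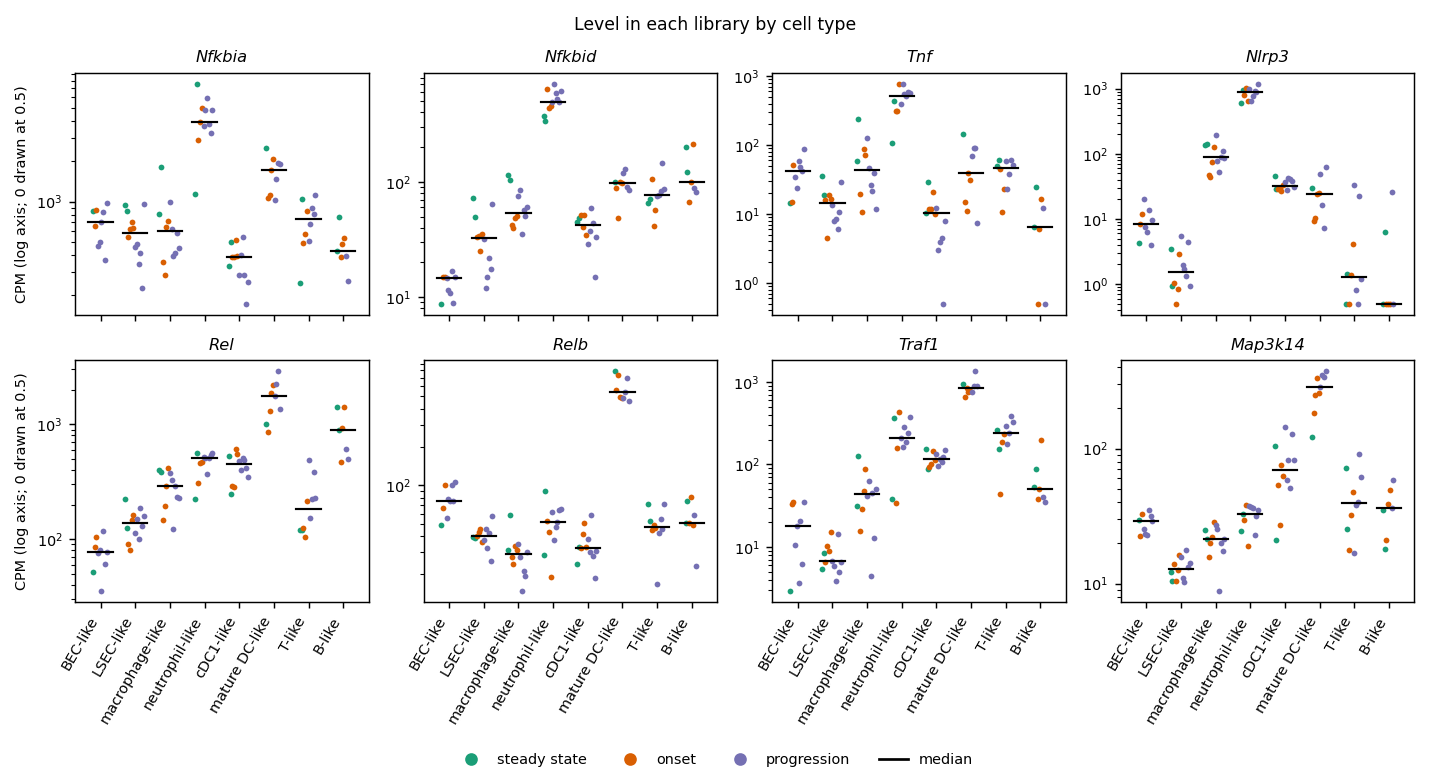
CPM on a log axis (0 drawn at 0.5) of 8 genes in each library with at least 20 cells of a type, coloured by stage, with the median as a black line. Nfkbia, Nfkbid, Tnf and Nlrp3 (top) are highest in neutrophil-like cells, and Rel, Relb, Traf1 and Map3k14 (bottom) in mature DC-like cells.

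Stretches before the transcription start of 4 of these genes are shown because Nfkbia and Tnf mark the neutrophil-like pattern and Nfkb2 and Rel the mature DC-like pattern. They are RefSeq sequences of build GRCm38.p6, 300 bases each (250 before to 50 after the start), written 5′ to 3′ in the direction of the gene. Capitals mark matches on either strand to the letters GGGA, any 4 bases, then CC, a simple form of the κB site to which NF-κB dimers bind.
Nfkbia, chr12:55492598-55492897, minus strand: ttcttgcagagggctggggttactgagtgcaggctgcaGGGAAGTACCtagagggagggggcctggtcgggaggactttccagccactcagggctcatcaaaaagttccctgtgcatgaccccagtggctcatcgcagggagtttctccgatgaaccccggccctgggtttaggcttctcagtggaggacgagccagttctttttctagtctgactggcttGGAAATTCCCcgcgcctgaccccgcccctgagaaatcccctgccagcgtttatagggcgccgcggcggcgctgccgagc
Tnf, chr17:35201958-35202257, minus strand: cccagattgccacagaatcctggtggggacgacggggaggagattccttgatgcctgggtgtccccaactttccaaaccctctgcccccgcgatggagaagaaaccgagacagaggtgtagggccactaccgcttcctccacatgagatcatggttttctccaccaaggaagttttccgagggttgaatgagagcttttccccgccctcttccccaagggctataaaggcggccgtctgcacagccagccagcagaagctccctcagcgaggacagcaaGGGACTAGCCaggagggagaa
Nfkb2, chr19:46304487-46304786, plus strand: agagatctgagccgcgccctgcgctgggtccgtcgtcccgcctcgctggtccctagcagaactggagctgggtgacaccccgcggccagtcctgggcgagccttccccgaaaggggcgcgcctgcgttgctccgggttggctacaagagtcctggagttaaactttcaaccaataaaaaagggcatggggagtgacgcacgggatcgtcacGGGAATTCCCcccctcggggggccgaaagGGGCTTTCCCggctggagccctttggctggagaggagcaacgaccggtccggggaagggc
Rel, chr11:23770920-23771219, minus strand: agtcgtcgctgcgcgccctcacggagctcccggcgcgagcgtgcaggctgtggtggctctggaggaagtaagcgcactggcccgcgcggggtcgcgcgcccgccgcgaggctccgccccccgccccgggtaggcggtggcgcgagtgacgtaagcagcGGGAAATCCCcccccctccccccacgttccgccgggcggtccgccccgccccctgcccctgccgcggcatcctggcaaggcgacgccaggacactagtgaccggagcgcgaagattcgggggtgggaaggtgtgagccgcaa
RefSeq promoter windows were at hand for 29 of the 36 genes (40 windows, as some genes have several starts), and 19 of these windows (47.5%), from 16 genes, held at least 1 match, against 20.7% of all 32851 windows. Nfkb2 and Nfkbia held 2 matches each in the windows shown, and the single match of Tnf lies after the start. A match is a string of letters and not a bound site, and binding was not measured here.

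Among lymphocytes, Tnfaip3 stood out in T-like cells. This gene, which encodes A20, had 454 CPM in neutrophil-like cells (133 to 965), 356 in T-like, 161 in mature DC-like, 143 in macrophage-like, 125 in LSEC-like, 69.7 in B-like, 56.3 in BEC-like and 32.9 in cDC1-like cells (3.92 to 75.2), so that T-like cells came next to neutrophil-like cells, with overlapping ranges, and wholly above mature DC-like cells. LSEC-like cells of D25 B, at 558 CPM, stood far above their median. Cyld, another deubiquitinase that restrains NF-κB, had medians of 203 CPM in neutrophil-like, 164 CPM in T-like and 136 CPM in cDC1-like cells. Ikbke, a kinase related to the IKK subunits, had its highest median in T-like cells, at 31.9 CPM (13.2 to 41.8). T-like cells were highest in 6 of their 10 libraries. Neutrophil-like cells had 51.9, 48.6 and 54.2 CPM of Ikbke in D19 B, D25 A and D25 B, above every T-like library. B-like cells had 891 CPM of Rel, 425 CPM of Nfkbia and 192 CPM of Nfkbiz, and led for 1 gene, Otulin, at 158 CPM.

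Between the types of the duct and the sinusoid, in the 9 libraries with both, 10 of 35 genes were higher in BEC-like than in LSEC-like cells every time (28.6%, with 37.0% of 9574 genes) and 8 were lower every time (22.9%, with 25.0%). Higher in BEC-like cells were Tnfaip8 (149 against 7.35 CPM, medians over each type's own libraries), Tnfaip2, Relb and Nfkb2. Higher in LSEC-like cells were Map3k8, the kinase TPL2 that couples NF-κB1 p105 to MAP kinases (95.4 against 20.9 CPM), and Cflar, which encodes the caspase-8 inhibitor c-FLIP (237 against 81.1 CPM). LSEC-like cells had the highest Cflar of the 8 types in 9 of 12 libraries. In macrophage-like cells, Tnfaip2, Rel and Tnfaip3 had medians of 302, 293 and 143 CPM. The 3 subunits of the linear ubiquitin ligase LUBAC (Rnf31, Rbck1 and Sharpin) and the IKK subunits Chuk and Ikbkg had medians between 9.24 and 70.6 CPM in all types.

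The second question was how these levels changed with DDC. For each type, the mean of onset and progression was set against steady state with edgeR's quasi-likelihood test, with protocol as a term and Benjamini-Hochberg adjustment over all genes tested in the type. Few members passed at an adjusted p of 0.05: 3 of 36 tested in macrophage-like cells (all lower, 4.45% of all 12599 genes passed), 3 of 35 in cDC1-like cells (all lower, 5.05% of 11316 genes), 2 of 35 in mature DC-like cells (both lower, 1.38% of 8279 genes), 1 of 36 in BEC-like cells (lower, 0.665% of 15335 genes) and 1 of 36 in T-like cells (higher, 2.21% of 10955 genes). In LSEC-like cells none of 34 passed (0.125% of 11242 genes), in neutrophil-like cells none of 34 (0.182% of 6041 genes) and in B-like cells none of 28 (0.307% of 5863 genes). At an unadjusted p under 0.05, 6, 6 and 1 members stood in these 3 types, where 11.4%, 14.1% and 4.74% of all genes did, and DESeq2 called 2, 0 and 0. The 10 calls came from 6 genes, of which Map3k8 was lower in 3 types, Tnf in 2, and Nfkbiz lower in one type and higher in another. Calls in different types share their steady state libraries and are not independent of each other. D0 B was the highest library for Map3k8 in 3 types without a call as well, at 136 CPM in T-like cells (at most 60.9 CPM in the others), 329 CPM in neutrophil-like (at most 162) and 271 CPM in B-like cells (at most 196). D0 A was not high there, at 21.9, 49 and 75.5 CPM. The median log2 fold change of the members tested was -0.5 in macrophage-like cells, where that of all genes was 0.04, and lay between -0.37 (B-like) and 0.31 (T-like) in the others. Steady state and DDC cells of a type often lay in different clusters, which are given beside the results, whereas mature DC-like and B-like cells were 1 cluster each.

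**Figure D3:**
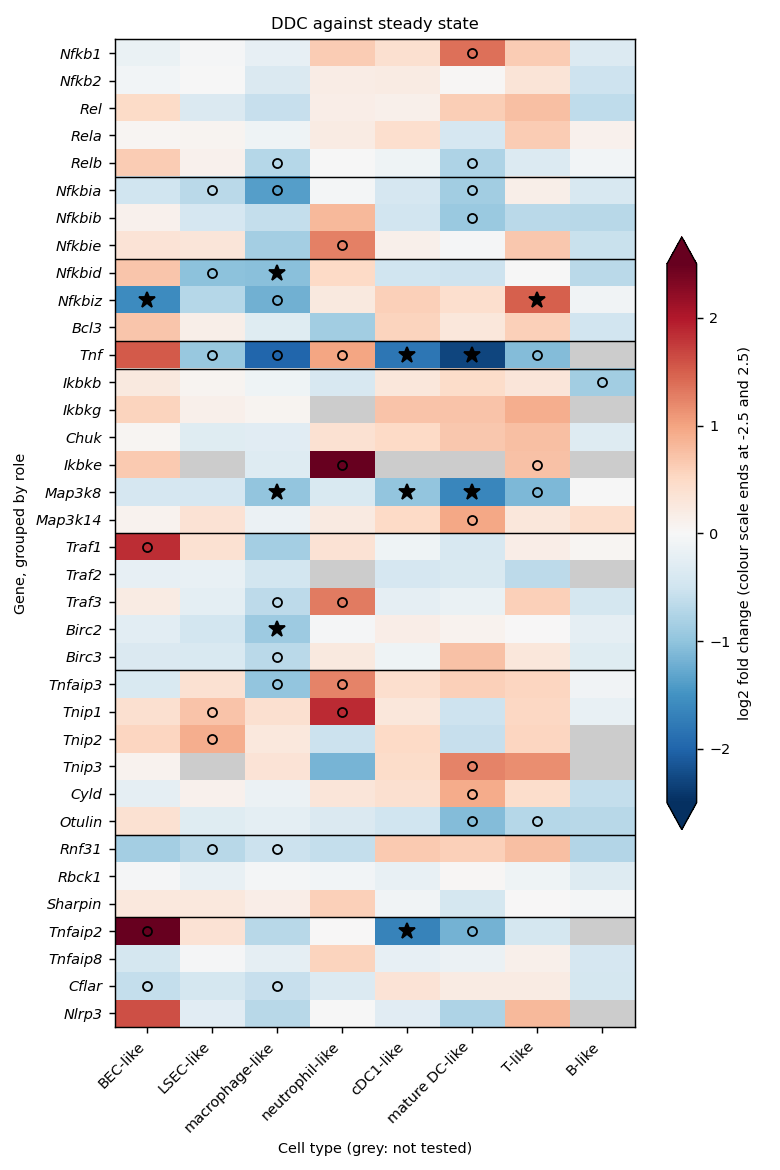
Log2 fold change of DDC (mean of onset and progression) against steady state in edgeR's fit, for the 36 genes in rows and 8 cell types in columns, with grey where a gene was not tested. Stars mark an adjusted p under 0.05 (10 of them) and open circles an unadjusted p under 0.05, and the macrophage-like column is blue for 31 of 36 genes. The median log2 fold change of all genes in macrophage-like cells was 0.04.

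In macrophage-like cells 31 of 36 members were fitted lower under DDC, and 3 passed, where 4.45% of all genes did. The share of all genes fitted lower was not counted. Their median log2 fold change was 0.04, and that of the members was -0.5. Map3k8 had 137 CPM in D0 A and 131 CPM in D0 B, and the lowest, median and highest of the 10 DDC libraries were 52.5, 64 and 89.6 CPM (log2 fold change -0.99 ± 0.18 (SE), adjusted p = 0.00799 by edgeR). Nfkbid had 115 and 104 CPM at steady state against 35.5, 50.3 and 84.4 CPM (-1.04 ± 0.23, adjusted p = 0.0222 by edgeR). Birc2 had 71.2 and 44.2 CPM against 19.8, 29.1 and 42.1 CPM (-0.90 ± 0.23, adjusted p = 0.0402 by edgeR). For each of these genes all 10 DDC libraries lay below both steady state libraries. The feedback inhibitors Nfkbia and Nfkbiz and the brake Tnfaip3 had log2 fold changes of -1.37 ± 0.42, -1.20 ± 0.33 and -0.99 ± 0.33, with 9 of 10 DDC libraries below both D0 libraries each, and did not pass (edgeR adjusted p = 0.0792, 0.0565 and 0.104). Tnf had 59.3 CPM in D0 A, 235 CPM in D0 B and 10.5, 33 and 128 CPM as the lowest, median and highest DDC library (-1.98 ± 0.79, edgeR adjusted p = 0.174), and D5 A (86.6 CPM), D5 B (71.8 CPM) and D9 A (128 CPM) lay above D0 A. Without D0 B the change in Tnf was 0.27.

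Other features of the macrophage-like sums moved with the diet. Of the D0 A cells 53.0% lay in a cluster led by Clec4f, C6 and Marco (11.1% of the DDC cells), and of the D0 B cells 52.7% lay in one led by Fcrls and Cx3cr1 (30.4%) and 36.4% in one led by H2-M2, Mmp13 and Ccl12 (4 of 11211 DDC cells). The 5 genes of lipid-associated macrophages (Trem2, Gpnmb, Cd9, Fabp5 and Mmp12) summed to 328 and 954 CPM at steady state and to 1197 to 5930.3 CPM under DDC. The 17 genes that respond to cell dissociation, immediate early genes such as Fos and Egr1 and heat shock genes, summed to 16803 and 22044 CPM at steady state and 7387 to 12129 CPM under DDC, without overlap. Kupffer cell genes summed to 9701 CPM in D0 A and 775 CPM in D0 B, so the steady state sums themselves differed. The part of these differences in the lower levels of NF-κB members was not tested. The call of Map3k8 was lost only when D0 B was left out, Nfkbid was lost without either D0 library, and Birc2 without any of 7 libraries (D0 A, D0 B, D3 A, D5 A, D9 B, D19 B or D25 A). Leaving out D0 B took the count of members called from 3 to 0 (Map3k8 -0.65, edgeR adjusted p = 0.0743), while leaving out D0 A or D9 A gave 6.

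Tnf and Map3k8 were called lower under DDC in cDC1-like and in mature DC-like cells, in comparisons that share the library D0 B. In cDC2-like cells, which were not tested, D0 B was high for both genes (115 CPM of Tnf and 211 CPM of Map3k8). D0 A had 19.8 CPM of Tnf (19.9 to 52.4 CPM under DDC) and 99.2 CPM of Map3k8 (67.9 to 140 CPM). In cDC1-like cells Tnf had 10.4 CPM in D0 A and 29.5 CPM in D0 B, against 0, 8.97 and 20.6 CPM as the lowest, median and highest of 10 DDC libraries (log2 fold change -1.80 ± 0.43 (SE), adjusted p = 0.0215 by edgeR). D0 B was the highest library, but D0 A, which rests on 3 UMIs of Tnf, lay within the DDC range, and 6 of 10 DDC libraries were below both. The 0 is that of D25 A, whose few cells allow up to 11.3 CPM at a count of 0. Tnfaip2 had 59.1 and 116 CPM against 20.2, 37.2 and 87.4 CPM (-1.66 ± 0.37, adjusted p = 0.0157 by edgeR), and Map3k8 had 73 and 98.1 CPM against 31.7, 53.4 and 82.3 CPM (-0.99 ± 0.27, adjusted p = 0.0363 by edgeR). For both genes 9 of 10 DDC libraries lay below both D0 libraries, and 1 of protocol A (D9 A for Tnfaip2, D19 A for Map3k8) did not. These calls rest on D0 B: without it the log2 fold changes were 0.36 for Tnf, 0.10 for Tnfaip2 and -0.22 for Map3k8, and no member passed, while without D0 A, which holds 27 cDC1-like cells, 8 passed. Without D5 B only Tnfaip2 passed, and Map3k8 was lost without any of 5 further libraries. They were also lost when cells called as doublets by Scrublet were removed, with log2 fold changes of -1.96 for Tnf, -1.68 for Tnfaip2 and -0.98 for Map3k8 (edgeR adjusted p = 0.0693, 0.0519 and 0.0854). Of the 1186 cDC1-like cells of D0 B, 808 lay in a cluster led by Cyp8b1 and Ffar4 that held 3.40% of the DDC cells, while 73.9% of the DDC cells and 21 of the 27 D0 A cells lay in one led by Sept3, Gpr141b and Xcr1. The part of this difference in the calls was not tested. LSEC markers in the cDC1-like sums were at 130.5 and 170.4 CPM at steady state and at 431 to 2221 CPM under DDC, and the part of this RNA was not tested.

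In mature DC-like cells, where D0 B is the only steady state library (152 cells), Tnf had 144 CPM there and 7.46, 35 and 91.4 CPM as the lowest, median and highest of 8 DDC libraries (-2.29 ± 0.53, adjusted p = 0.0392 by edgeR). Within the DDC libraries it lay at 15.2 and 11.1 CPM on D3, at 91.4 and 89.4 CPM in D9 B and D19 B, and at 7.46 CPM in D25 B, so that it did not follow one course. Map3k8 had 281 CPM against 48.5, 122 and 158 CPM (-1.63 ± 0.36, adjusted p = 0.0259 by edgeR). All 8 DDC libraries lay below D0 B for both genes. Fitted higher without passing were Nfkb1 (1.38 ± 0.45), Tnip3 (1.24 ± 0.43) and Map3k14 (0.97 ± 0.37), each with all 8 DDC libraries above D0 B (edgeR adjusted p = 0.136, 0.153 and 0.203), and Cyld (0.93 ± 0.42), with 7 of 8 (edgeR adjusted p = 0.27). Fitted lower without passing, also at an unadjusted p under 0.05, were Otulin (-1.08 ± 0.33), Nfkbia (-0.87 ± 0.39) and Relb (-0.77 ± 0.34), each with all 8 DDC libraries below D0 B. So were Nfkbib (-0.92 ± 0.34), with 7 of 8 below, and Tnfaip2 (-1.19 ± 0.56), with 6 of 8 (edgeR adjusted p from 0.113 to 0.294 over these 5). D0 B also stood apart for Nfkb1, Otulin and Nfkbib in other types. Nfkb1 was lowest in D0 B in T-like (59.1 CPM), cDC1-like (56.2 CPM) and B-like cells (94.7 CPM), where D0 A had 246, 198 and 336 CPM. It was also lowest there in neutrophil-like (90.6 CPM) and cDC2-like cells (161 CPM), but not in macrophage-like or LSEC-like cells. Otulin was highest in D0 B in T-like (207 CPM), cDC1-like (144 CPM) and B-like cells (363 CPM). The same held in macrophage-like (158 CPM), LSEC-like (136 CPM), neutrophil-like (107 CPM) and cDC2-like cells (187 CPM). Nfkbib was highest in D0 B in cDC1-like, LSEC-like, macrophage-like, B-like and cDC2-like cells, but not in T-like or neutrophil-like cells. The part of D0 B in the mature DC-like changes was not tested. The mature DC markers themselves summed to 8216 CPM in D0 B and 3778 to 6673 CPM under DDC, and effector T cell genes to 9209 CPM against 1353 to 6148 CPM, and the part of these shifts was not tested. Removal of Scrublet doublets ended both calls at folds close to the above (-2.37 for Tnf, edgeR adjusted p = 0.0887, and -1.59 for Map3k8, edgeR adjusted p = 0.0644), and Scrublet had marked 41.3% of the 63 mature DC-like cells of D3 B. Map3k8 was also lost without D5 B, and Tnf without D3 A, D3 B or D9 A. Over all alternatives the log2 fold change ran from -2.62 to -2.0 for Tnf and from -1.85 to -1.50 for Map3k8.

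Nfkbiz was called in opposite directions in 2 types. In BEC-like cells it had 787 CPM in D0 A, the only steady state library with enough cells, and 213, 279 and 402 CPM as the lowest, median and highest of 8 DDC libraries (-1.57 ± 0.27, adjusted p = 0.0403 by edgeR). All 8 lay below D0 A, by a fold of 2.97 in the fit. Its edgeR or DESeq2 adjusted p over the alternatives ran from 0.000120 to 0.0920 and its log2 fold change from -1.68 to -1.48, and the call was lost with Scrublet doublets removed and without any of 7 single DDC libraries. Of the 776 BEC-like cells of D0 A, 87.8% lay in a cluster led by Ces1d, Ddit4l and Lamc3 that held 5.42% of the DDC cells. The dissociation genes summed to 35630.3 CPM in D0 A against 14451 to 24103 CPM, and hepatocyte markers to 6513 against 1233 to 3997 CPM, and the part of the cluster and of these genes was not tested. In T-like cells Nfkbiz had 98.6 CPM in D0 A and 50.5 CPM in D0 B, against 102, 202 and 285 CPM in 8 DDC libraries (1.5 ± 0.36, adjusted p = 0.0349 by edgeR). Each of the 8 DDC libraries lay above both D0 libraries, although D3 B, at 102 CPM, was barely above D0 A, which held 54 T-like cells. Of the 1457 T-like cells of D0 B, 745 lay in a cluster led by Il4, Tceal3 and Cd40lg and 472 in one led by Rgcc, Dapl1 and Ccr7, which held 0.815% and 1.24% of the DDC cells and none of the D0 A cells, and the part of this difference was not tested. The dissociation genes went the other way in T-like cells, from 9952 and 15252 CPM to 5513 to 8888 CPM. Without D0 B the change was 1.06 (edgeR adjusted p = 0.642), and the call was also lost without D3 A, D5 B, D19 B or D25 A.

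**Figure D4:**
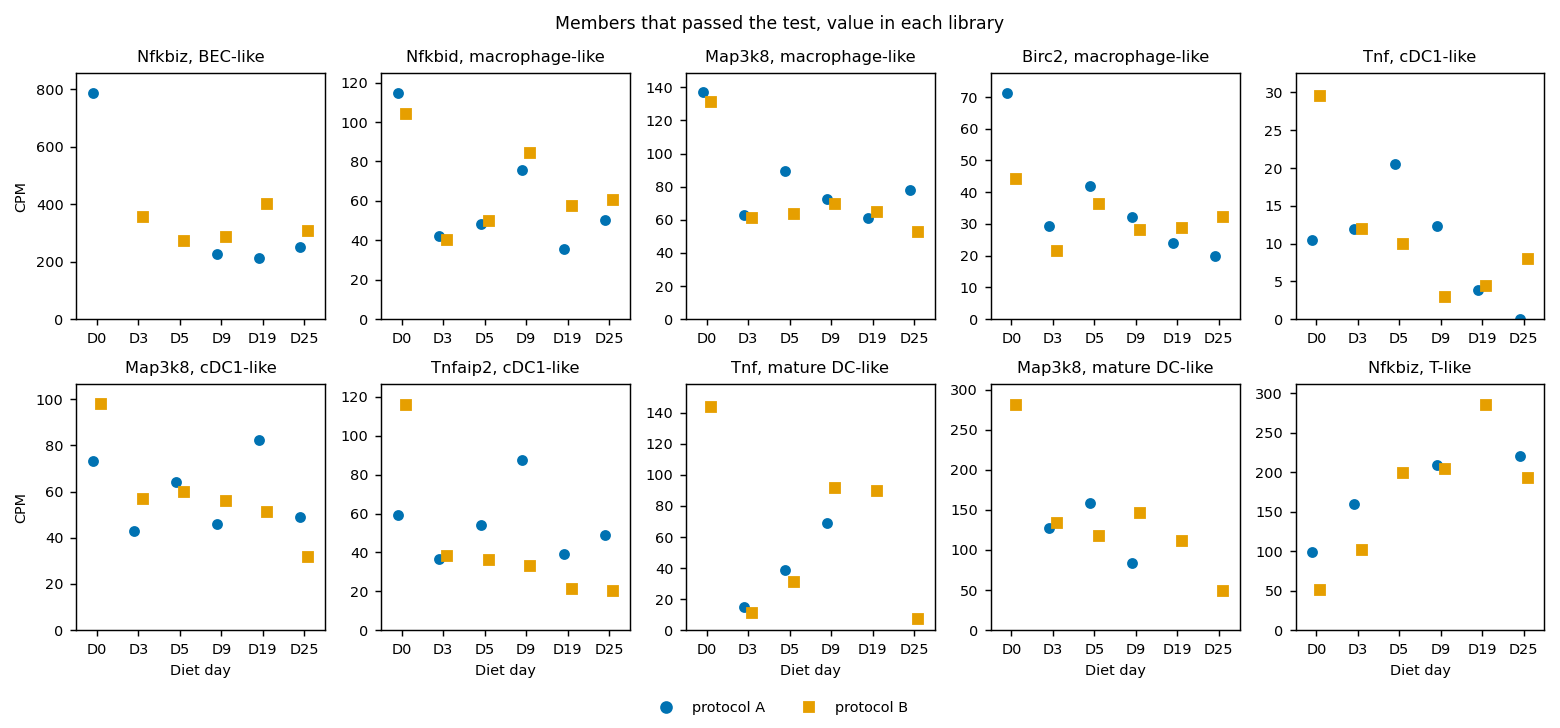
CPM in each library of the 10 combinations of gene and cell type that passed the test of DDC against steady state, by diet day (D0 to D25) and isolation protocol (blue circles A, orange squares B), on axes from 0. The D0 values are the highest of every panel except Nfkbiz in T-like cells, where they are the lowest, and except the D0 A values of the 3 cDC1-like panels.

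Several members with wide changes did not pass. In BEC-like cells Tnfaip2 went from 20.9 CPM to 35.6, 105 and 139 CPM as the lowest, median and highest DDC library (2.5 ± 0.54, edgeR adjusted p = 0.0685) and Traf1 from 2.95 to 3.64, 19.3 and 34.9 CPM (1.85 ± 0.61, edgeR adjusted p = 0.147), with all 8 DDC libraries above D0 A for both. In neutrophil-like cells Tnfaip3, Tnip1, Nfkbie, Traf3 and Nfkbid were above both D0 libraries in all 9 DDC libraries. The share of all genes for which this held was not counted, so whether it is particular to the members cannot be told. At an unadjusted p under 0.05 by edgeR there were 6 of 34 members in this type, and 14.1% of all genes. Ikbke had 2.72 CPM in D0 A and no UMI in D0 B, which allows up to 24.7 CPM there. It had 9.51 to 54.2 CPM under DDC, so its groups could not be told apart at this depth. Tnfaip3 had 133 and 288 CPM at D0 against 311, 506 and 965 CPM under DDC (1.24 ± 0.42), and Tnip1 17.7 and 16.5 against 47.6, 51 and 92.7 CPM (1.86 ± 0.5), with edgeR adjusted p = 0.201 and 0.125. These values lean on steady state sums of 301 and 56 neutrophil-like cells, in which the neutrophil markers themselves were higher (129363 and 131177 CPM) than under DDC (49888 to 122889.9 CPM), a part that was not tested. In LSEC-like cells Tnip2, an A20-binding protein, was above both D0 libraries in 10 of 10 DDC libraries (0.91 ± 0.23, edgeR adjusted p = 0.146), and Nfkbid was below both in 9 of 10 (-1.02 ± 0.39, edgeR adjusted p = 0.337). LSEC-like Nfkbia had 943 and 844 CPM at D0 and 228, 509.8 and 952 CPM under DDC, with D25 B above both D0 libraries and the other 9 below. Of the D0 A LSEC-like cells 76.2% lay in a cluster that held 0.619% of the DDC cells. Its top 10 genes by fold include the hepatocyte transcripts Serpina1e, Mup11 and Mup3, the heat shock gene Hspa1b and interferon-induced genes, and no LSEC marker, although 10 of 12 LSEC markers were detected in it. Without this cluster no LSEC-like member passed either, and the change was -0.45 for Nfkbid and 0.97 for Tnip2. Nfkbia went from -0.67 to -0.22. In neutrophil-like cells 95.5% of steady state and 57.2% of DDC cells lay in a cluster led by Retnlg and Cstdc4. In addition, 2 endothelial clusters that stayed unnamed were set aside, and they were 0.437% and 0.6% of their sum with LSEC-like cells at D0 but 3.38% to 64.8% under DDC (64.8% in D19 A, 57.3% in D25 A and 38.1% in D19 B). With these endothelial clusters added, no member passed. The part of these differences in the LSEC-like and neutrophil-like values was not tested.

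Between onset and progression no member passed in any type. EdgeR called 0 of 36 members in BEC-like, macrophage-like and T-like cells, 0 of 35 in cDC1-like and mature DC-like, 0 of 34 in LSEC-like and neutrophil-like and 0 of 28 in B-like cells, and DESeq2 called 0 in each. At an unadjusted p under 0.05 there were 6 members in cDC1-like, 4 in LSEC-like, 3 in macrophage-like, 2 each in BEC-like, neutrophil-like, T-like and B-like and 1 in mature DC-like cells. The shares of all genes at that p were 6.16%, 7.41% and 12.1% in the first 3 of these types, 5.35%, 13.7%, 3.87% and 3.02% in the next 4 and 4.30% in mature DC-like cells. Over all genes the share called was 0% in BEC-like, neutrophil-like, cDC1-like, mature DC-like and T-like cells, 0.0445% in LSEC-like, 0.159% in macrophage-like and 0.392% in B-like cells. The median SE of a member's log2 fold change was between 0.21 (macrophage-like) and 0.57 (B-like), so shifts of small size were not detectable at this depth and number of libraries.

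Genes next to the 36 in the pathway were counted in the same fits of DDC against steady state. Over the 8 types, 2 of 79 tests of 14 receptor genes were higher and 1 lower, 0 of 162 tests of 23 upstream adaptors and kinases were higher and 3 lower, and 2 of 162 tests of 26 target genes were higher and 5 lower. Of all 81630 tests of the 8 types 0.855% were higher and 1.15% lower. In macrophage-like cells the receptor gene Il1r1 was higher (2.08 ± 0.34 (SE), adjusted p = 0.00511 by edgeR), and Ebi3, which encodes a subunit of IL-27, was lower (-1.45 ± 0.24 (SE), adjusted p = 0.00598 by edgeR). Il1r1 was above both D0 libraries in each DDC library of protocol A, from 15.4 to 35.8 CPM against 8.14 CPM in D0 A, whereas protocol B values were 5.08 to 9.36 CPM against 0.589 CPM in D0 B. Cd40, Irak3, Tank and Il1b also passed there, all lower. In cDC1-like cells Vcam1 (4.05 ± 0.68 (SE), adjusted p = 0.00278 by edgeR) and Il1r1 (3.97 ± 0.73 (SE), adjusted p = 0.00499 by edgeR) were higher, at 1.14 and 0.310 CPM in D0 B. Neither had a UMI in D0 A, whose 27 cells allow up to 10.4 CPM at a count of 0, and the DDC libraries ran from 9.44 to 54.8 CPM and from 4.26 to 27.7 CPM. Both are also expressed by endothelial or stromal cells, and LSEC markers were higher in the same sums, as given above, a part that was not tested. Ebi3 and Card9 also passed in cDC1-like cells, both lower. In T-like cells Csf2 (-3.34 ± 0.53 (SE), adjusted p = 0.00312 by edgeR) and Bcl2a1b (-1.65 ± 0.33 (SE), adjusted p = 0.0137 by edgeR) were lower, with 5.48 and 53.7 CPM of Csf2 in D0 A and D0 B. D3 A had 44.4 CPM and the other DDC libraries had at most 5.94 CPM, so D0 A lay among them. In neutrophil-like cells Icam1 was higher (2.71 ± 0.47 (SE), adjusted p = 0.0348 by edgeR), at 23.2 and 32.9 CPM in D0 A and D0 B and 67.9 to 624 CPM under DDC. Between onset and progression, Cxcl2 (4.01 ± 0.65 (SE), adjusted p = 0.0000316 by edgeR), Il1b and Cd14 were higher in B-like cells, whose 2 progression libraries (D9 A and D25 A) also held more neutrophil marker RNA (148 and 128 CPM) than the 3 onset libraries (12 to 21 CPM).

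The last comparison set the STOP library, after recovery, against D19 of the same protocol. It has 1 library on each side, so no test was possible, and exact 95% Poisson intervals cover counting error only. Intervals were separate for 6 (mature DC-like) to 17 (macrophage-like and T-like) of the 36 genes in the 7 types with enough cells, but ratios of at least 2 with separate intervals were found in 16 combinations of gene and type. The same count was made over all genes with at least 10 CPM in either library. Separate intervals were found for 15 of 36 members in BEC-like cells (41.5% of all genes), 11 of 32 in LSEC-like (29.9%), 17 of 36 in macrophage-like (35.9%), 12 of 34 in neutrophil-like (25.2%), 15 of 34 in cDC1-like (39.7%), 6 of 34 in mature DC-like (8.65%) and 16 of 32 in T-like cells (47.1%). With a ratio of at least 2 in addition, there were 1 member in BEC-like cells (8.50% of all genes), 3 in LSEC-like (9.68%), 2 in macrophage-like (9.48%), 3 in neutrophil-like (19.4%), 3 in cDC1-like (9.15%), 1 in mature DC-like (5.42%) and 2 in T-like cells (6.56%). These are at most 9.38% of the members in the base, and in no type more than the share of all genes. Tnf was lower after recovery in mature DC-like cells, at 15.1 CPM (6.51 to 29.7) against 89.4 CPM (57.8 to 132). It was higher in T-like cells, at 82.2 CPM (76.1 to 88.6) against 38.5 CPM (34.2 to 43.1), in cDC1-like cells, at 14.5 CPM (12.5 to 16.8) against 4.44 CPM (2.48 to 7.32), and in LSEC-like cells, at 20.8 CPM (16.2 to 26.2) against 5.96 CPM (2.72 to 11.3). The ligand thus did not move one way across types.

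Nfkbiz in T-like cells, which was higher under DDC, had 127 CPM (119 to 135) against 285 CPM (273 to 297) after recovery, between the D0 values and D19 B. Tnfaip2 had 45.1 CPM (39.9 to 50.7) against 117 CPM (109 to 125) in BEC-like cells and, in the opposite direction, 57.8 CPM (53.7 to 62.1) against 21.3 CPM (16.7 to 26.8) in cDC1-like cells. In LSEC-like cells Nfkbia had 874 CPM (843 to 906) against 415 CPM (383 to 449) and Nfkbid 61.1 CPM (53 to 70.0) against 21.8 CPM (15 to 30.7). The endothelial clusters set aside were 6.50% of their sum with LSEC-like cells in STOP and 38.1% in D19 B. With them added, the values were 858 against 449 CPM for Nfkbia, a ratio of under 2, 58.9 against 20.6 CPM for Nfkbid and 20.2 against 8.24 CPM for Tnf, with separate intervals for each. In neutrophil-like cells Tnfaip3 had 354 CPM (307 to 407) after recovery against 868 CPM (787 to 955), Cyld had 65.2 CPM (45.9 to 89.8) against 270.0 CPM (226 to 321), and Birc2 had 51.1 CPM (34.2 to 73.4) against 104 CPM (77.1 to 137). Tnip3 was lower in macrophage-like cells, at 61.4 CPM (52.6 to 71.3) against 131 CPM (123 to 138), and in cDC1-like cells, at 19.1 CPM (16.8 to 21.6) against 43.2 CPM (36.5 to 50.8), while Rnf31 was higher in macrophage-like cells, at 35.5 CPM (28.9 to 43.2) against 17 CPM (14.5 to 19.8). Nlrp3 in T-like cells had 2.20 CPM (1.31 to 3.48) against 0.259 CPM (0.0314 to 0.936), from 18 and 2 UMIs. Each of these differences is between 2 libraries and not between conditions.

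**Figure D5:**
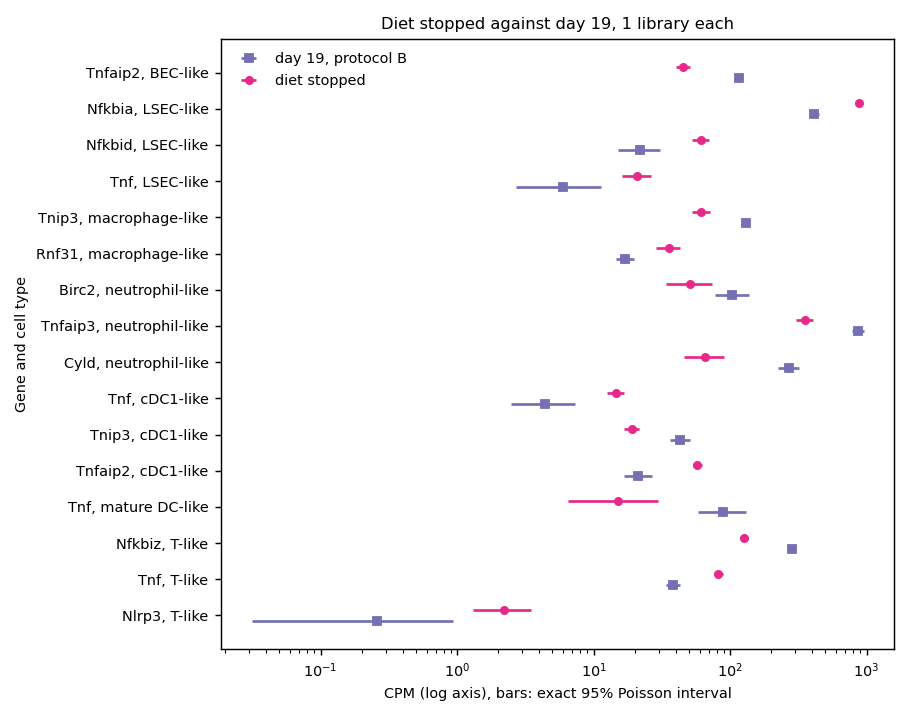
CPM on a log axis in the STOP library (pink circles) and the D19 library of protocol B (purple squares), with exact 95% Poisson intervals, for the 16 combinations of gene and cell type with separate intervals and a ratio of at least 2. Tnf lies lower after recovery in mature DC-like cells and higher in LSEC-like, cDC1-like and T-like cells.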

How the data were processed

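The files deposited by the authors hold, for each library, UMI counts of every gene in every barcode, made with kallisto on build GRCm38 per the submitters' processing notes. They are not scaled, and all barcodes are listed. Versions are not given in the sources used here. Counts per library are given in the report and set the precision of each value, and Poisson intervals cover counting error only. Barcodes with at least 1500 UMIs were kept, scaled to 10000, and clustered (scanpy 1.11.5, 2000 variable genes, 40 components, 25 neighbours, Leiden resolution 2) without the pathway genes. A cluster was named from at least 3 markers detected in 10% of its cells and at 2-fold the other cells, and this rule was revised after clusters had been seen. Doublets were kept, and Scrublet calls (in scanpy, 2.54% to 19.9% of a library) were removed as an alternative. UMIs were summed per library and type (at least 20 cells) and tested with edgeR 4.0.16 in R 4.3.3 (TMM, filterByExpr, quasi-likelihood test, Benjamini-Hochberg adjustment at 0.05 over all genes of the type), with stage and protocol as terms, for onset and progression against steady state and for progression against onset. The fits were tested on simulated counts with the same mean profile in every library, apart from the changes put in. Differences between D0 A and D0 B were not simulated. DESeq2 1.42.0, no filter on low counts, Scrublet removal and leaving out each library were alternatives, and levels were also computed with at least 3000 UMIs per cell. Further alternatives, 2 endothelial clusters that had stayed unnamed added to LSEC-like cells and a cluster led by Serpina1e left out of them, were chosen after seeing the data. Named are all members that passed, the 3 with the highest median in each type, and Tnf, Nfkbia, Nfkb1, Nfkb2, Rel, Relb, Nfkbid, Nfkbiz and Tnfaip3 in every type. For DDC against steady state, changes are printed for some but not all members with an unadjusted p under 0.05. For progression against onset such members are only counted. Members beyond those named by rule were chosen after their values were seen. The members and lists were chosen with earlier results of these data known. RefSeq promoter windows were matched by symbol. Cells of the cDC2-like type were not tested.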

Additional observations from a re-analysis of the deposited data

Results flagged for a closer look

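Of 109 groups of 4 to 6 libraries examined, over the genes named in every type and those that passed, 16 held a library whose gap to the nearest other was wide for the group, a size of gap that chance gives in about 1 of 20 groups. Progression LSEC-like cells of D25 B were highest for Nfkbia (952 against 228 to 479.6 CPM in the other 5 progression libraries), Nfkbiz (726 against 154 to 357 CPM), Tnf (29.5 against 5.96 to 13.3 CPM) and Tnfaip3 (558 against 86.1 to 144 CPM). The dissociation genes were also highest of the progression libraries in that sum, at 24939 CPM, and their part was not tested. Progression macrophage-like cells of D9 A were highest for Nfkb1 (245 against 71.7 to 125 CPM), Nfkb2 (36.4 against 11.3 to 19.7 CPM), Nfkbiz (339 against 93 to 173 CPM) and Tnf (128 against 11.8 to 46.4 CPM). At onset, D5 A was highest for Map3k8 in macrophage-like cells (89.6 against 61.4 to 63.3 CPM) and for Nfkbia (520.2 against 384 to 395 CPM) and Tnfaip2 (53.9 against 36.3 to 37.9 CPM) in cDC1-like cells, and D5 B was lowest for Nfkbiz in LSEC-like cells (328 against 431 to 447 CPM). Single libraries stood apart in progression for Rel in neutrophil-like cells (D19 A lowest, 372 against 505 to 568 CPM), Nfkb2 in mature DC-like cells (D9 A highest, 187 against 130.5 to 134 CPM), and, in T-like cells, Nfkbid (D25 A highest, 145 against 75.2 to 86.8 CPM) and Tnfaip3 (D19 B highest, 515 against 326 to 381 CPM).

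In 4 pairs of types all DDC libraries lay above steady state in one type and below it in the other, a difference that was not tested. The log2 fold changes of Nfkbiz in T-like and BEC-like cells were 3.07 apart. Those of Nfkbid in BEC-like and macrophage-like cells were 1.73 apart and in neutrophil-like and macrophage-like cells 1.53 apart, with the higher value in the type named before. For Tnf, BEC-like and mature DC-like cells were 3.82 apart, with 1 steady state library in each.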

How the results depend on the processing

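For DDC against steady state, DESeq2 called 2 members in BEC-like (1 in the report), 2 in LSEC-like (0), 5 in macrophage-like (3) and 4 in mature DC-like cells (2). Without a filter on low counts there were 4 in BEC-like, 1 in LSEC-like, 9 in macrophage-like, 2 in neutrophil-like and 3 in T-like cells. Removal of Scrublet doublets left 0 in BEC-like, cDC1-like and mature DC-like cells, and kept 3 in macrophage-like and 1 in T-like cells. Leaving out 1 library at a time gave 0 to 2 members in BEC-like, 0 to 1 in LSEC-like, 0 to 6 in macrophage-like, 0 to 8 in cDC1-like, 1 to 2 in mature DC-like and 0 to 6 in T-like cells, with 0 in macrophage-like, cDC1-like and T-like cells without D0 B and the highest count of each without D0 A (in macrophage-like cells also without D9 A). The BEC-like call was lost without any of 7 single DDC libraries (D5 B and the 6 of progression, another member passing without D5 B). BEC-like cells without D0 A and mature DC-like cells without D0 B could not be fitted, as no steady state library was left. For progression against onset, no filter on low counts gave 1 member in LSEC-like, 2 in cDC1-like and 1 in mature DC-like cells, and the other alternatives gave 0. Adding the unnamed endothelial clusters to LSEC-like cells left 0, as did leaving out the cluster led by Serpina1e, where Nfkbid went from -1.02 to -0.45.

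Of the 48 changes with an unadjusted p under 0.05, 8 turned direction without 1 steady state library. Over single libraries left out, the range was -2.38 to 0.36 for Tnf and -2.41 to 0.10 for Tnfaip2 in cDC1-like cells, -1.33 to 0.02 for Relb, -3.07 to 0.27 for Tnf and -0.94 to 0.15 for Rnf31 in macrophage-like cells, and -1.40 to 0.07 for Tnf, -1.59 to 1.27 for Map3k8 and -1.20 to 0.45 for Otulin in T-like cells. The turn came without D0 B, except for Rnf31, without D0 A. Relb and Tnf in these types turned by little, to 0.022 in macrophage-like (Relb) and 0.066 in T-like cells (Tnf). The cause was not tested. Mature DC-like cells led for 13 members and neutrophil-like cells for 12 with doublets removed, and for 14 and 11 with at least 3000 UMIs per cell.

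No paired analysis was possible because the labels number no replicates. Isolation protocol, which libraries of different days do share, was a term of each fit. With 2 steady state libraries at most, of lower UMI counts per cell than the rest, comparisons with steady state rest on few libraries, some of few cells (27 cDC1-like and 54 T-like in D0 A, 56 neutrophil-like in D0 B), and values of under about 10 CPM in small sums rest on few UMIs.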
